A study of Mus musculus with 8 samples.

Results

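A set of 237 RNAs had a larger share of the polyadenylated RNA in mature mouse oocytes than in immature oocytes, and a smaller share when a mutant form of BTG4 was overexpressed. They were selected on deposited TPM (the share of a library's transcripts that a gene takes, corrected for its length) among the 15962 genes listed for all 8 libraries. Each member had at least 10 TPM in both MII libraries. Its lowest MII value of TPM + 1 was at least 2 times its highest GV value, and its lowest Btg4wt value was at least 1.5 times its highest Btg4tm value. Genes named mt-, Gm followed by a digit, Slc or Zfp followed by a digit were set aside. All 8 libraries entered this selection, so the levels, ratios and positions below describe the members and test nothing about them.

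The samples were 4 groups of 2 libraries, each made from 15 mouse oocytes without their zona by Smart-seq2. GV oocytes are arrested in the first meiotic prophase with an intact germinal vesicle, and MII oocytes have matured to metaphase of the second division, here by culture in vitro. The other groups were MII oocytes from fully grown oocytes injected with capped RNA for Myc-tagged BTG4, either wild-type (Btg4wt) or with 3 neighbouring phosphorylatable residues changed to alanine (Btg4tm). The labels and methods describe no injection for the GV and MII oocytes, and no removal of the oocyte's own BTG4 from the injected groups, although the study notes that less of the endogenous protein seemed to accumulate when either form was expressed. The mice were female Crl:CD1 (ICR) and, by the description of oocyte collection, 6 weeks old. The number of animals behind a library was not given in the sources used here, so p-values measure only the spread between libraries, which may be technical. In bulk samples fewer cells and less RNA per cell cannot be told apart.

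Growing oocytes store mRNA with short poly(A) tails, and fully grown ones transcribe almost nothing during maturation. When meiosis resumes, some of these dormant mRNAs gain a longer tail through cytoplasmic polyadenylation, which is directed by the cytoplasmic polyadenylation element (CPE) near the 3′ end and its binding proteins. Many other maternal mRNAs lose their tail and are degraded, and BTG4 is known to bring the CCR4-NOT deadenylase to them. Reverse transcription from an oligo(dT) primer reads RNA through its tail, so a higher TPM can mean more molecules, longer tails or fewer of the other RNAs, and these cannot be told apart here.

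Short stretches near the annotated 3′ end are shown for 8 members that are discussed below and hold a CPE just before the poly(A) signal. Capitals mark the CPE (TTTTAT or TTTTAAT) and the signal (AATAAA or ATTAAA), which share letters in Dcp1a, Nfya and Plekha8. Each window has 30 bases, reads 5′ to 3′ with T for U, and comes from the GENCODE M21 transcripts of the build GRCm38. All lie in the 3′ untranslated part of the last exon.
Dcp1a (chr14:30527011-30527040, plus strand): aaatatatttTTTTAATAAAatttcaaaac
Brca2 (chr5:150569703-150569732, plus strand): ctatcaTTTTATatacaaAATAAAcatagc
Plk4 (chr3:40816840-40816869, plus strand): caaatacaTTTTATaaAATAAAcacagtgg
Ccp110 (chr7:118736980-118737009, plus strand): tgcTTTTATgtaaaagtcaaAATAAActtt
Nfya (chr17:48386900-48386929, minus strand): tgcttttcttTTTTAATAAAtttataaaaa
Actr2 (chr11:20062316-20062345, minus strand): cttctTTTTAATtaagaaAATAAAtaagat
Plekha8 (chr6:54645804-54645833, plus strand): ttttagagtaTTTTATTAAAcgttcttcaa
Nol10 (chr12:17430051-17430080, plus strand): tTTTTATatcaagggtataaattAATAAAt
A match is a description of these letters. Whether the oocyte uses these 3′ ends was not tested.

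The members took 2.13% and 2.43% of the TPM total in the GV libraries and 5.78% and 5.61% in the MII libraries. Their share was 5.61% and 5.48% in Btg4wt but 2.24% and 2.69% in Btg4tm oocytes, so the mutant libraries lay beside GV and not beside MII. Without CT010467.1, the most abundant member, the shares were 1.66% and 1.79%, 4.37% and 4.25%, 4.23% and 4.10%, and 2.0% and 2.17% in the same order. The median absolute log2 difference between replicates over the members was 0.13 in GV, 0.07 in MII, 0.11 in Btg4wt and 0.15 in Btg4tm oocytes. Over eligible genes it was 0.14, 0.11, 0.14 and 0.18. The selection favours genes with close replicates, since it compares the lowest value of a group with the highest of another.

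**Figure D1:**
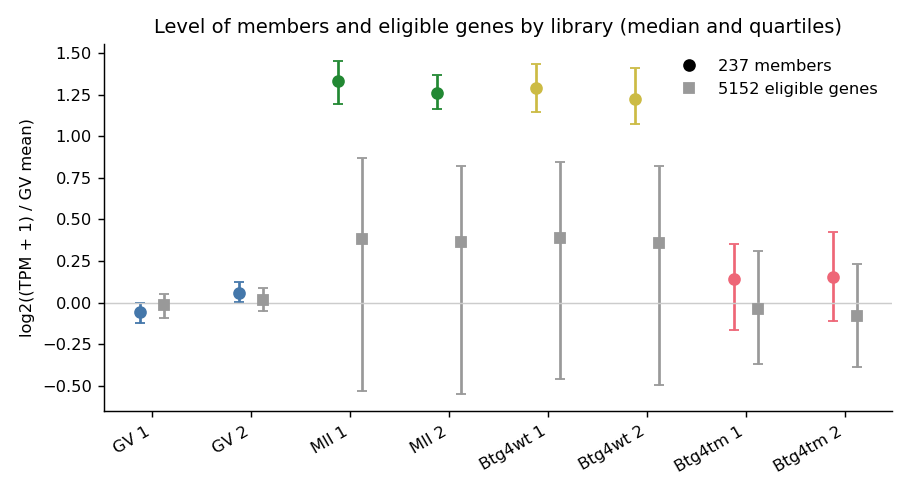
Median level of the 237 members (coloured circles, 1 colour per group) and of the 5152 eligible genes (grey squares) in each library, as log2 of TPM + 1 relative to the mean of the GV libraries, with bars from the lower to the upper quartile. Member medians were 1.33 and 1.26 in MII, 1.29 and 1.23 in Btg4wt, and 0.14 and 0.16 in Btg4tm, a pattern used to choose them and which turns below 0 in MII when libraries are scaled to mitochondrially encoded RNA.

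The direction depends on the reference. TPM from mitochondrially encoded genes made up 0.623% and 0.648% of listed TPM in GV, 2.70% and 2.60% in MII, 2.05% and 1.75% in Btg4wt, and 0.762% and 1.02% in Btg4tm oocytes. When the libraries were scaled to that sum, the median log2 difference of the members from GV to MII was -0.69 against 1.45 with median-of-ratios scaling, and that of all 13968 genes tested was -1.74. The part of this share in the result was not tested. The members stood above the median of all genes tested by 1.06 or 1.45 on the log2 scale with these references. The median of eligible genes was -1.61 or 0.53. From Btg4wt to Btg4tm the members' median was -0.03 or -1.08, which is 0.90 or 1.09 below the median of all genes tested. The median of eligible genes was 0.82 or -0.23 there. The members were chosen on both differences, so these gaps follow from the selection. "Higher" and "lower" below mean a share of the library's TPM.

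The libraries held oocyte RNA: all 12 oocyte markers were listed in all files, with summed TPM from 36375 to 48924. Of 16 cumulus and granulosa cell markers 6 were listed in all files, summing to 33.0 to 43.3 TPM, and of 4 blood cell markers 0 were listed. Fshr and Hsd17b1 were listed in some files only. Inha had 4.64 and 2.33 TPM in GV, 0.0 and 0.52 in MII, 1.86 and 1.05 in Btg4wt and 9.74 and 4.91 in Btg4tm oocytes. Cyp19a1 and Nr5a2, which made up most of the sum, were lower in Btg4tm than in Btg4wt oocytes. Like Inha, the low markers Col4a1, Ptgs2 and Fshr were higher in Btg4tm, and Lhcgr overlapped. Col4a1 had 0.53 and 0.67 TPM in Btg4wt and 1.30 and 1.17 in Btg4tm oocytes. Ptgs2 had 0.18 and 0.16 against 0.39 and 0.58, and Fshr 0.06 and 0.15 against 0.47 and 1.42. The part of these markers in the result was not tested. Btg4 itself had 2816 and 3093 TPM in GV, 5645 and 5816 in MII, 5134 and 5331 in Btg4wt and 3689 and 3856 in Btg4tm oocytes. These values do not show more Btg4 RNA in the injected groups than in MII. For the protein, the study reported overexpression of both forms by immunoblot. Listed TPM summed to 996199 to 998615 per library, and depth is unknown since TPM do not keep it.

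Among the 5152 eligible genes, with at least 10 TPM in both MII libraries and a name that was not set aside, 482 (9.36%) met the 2-fold condition between MII and GV. Of these, 237 also met the 1.5-fold condition between Btg4wt and Btg4tm, and 226 were below Btg4wt in both Btg4tm libraries by less than that. In 15 the ranges of the injected groups overlapped, 4 were above by under 1.5-fold, and 0 were above by 1.5-fold or more. Over all eligible genes the 1.5-fold condition was met by 21.8%, and 887 of the genes that met it did not meet the MII condition.

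The ratio of the lowest MII to the highest GV value had a median of 2.19 and ran from 2.0 to 4.52, so most members lay close to the threshold, and 7 reached 3-fold. The ratio of the lowest Btg4wt to the highest Btg4tm value had a median of 1.88 and ran from 1.5 to 5.33, with 92 members at 2-fold or more and 15 at 3-fold or more. The members just inside the MII minimum were Ccdc88a (10.1 TPM in the lower MII library), Emsy (10.2) and Trim33 (10.7), and the genes just outside were Nf1 (9.72), Med13l (8.01) and Prodh2 (7.98). For MII over GV, Fcho2, Nucks1 and Emsy stood inside with ratios that round to 2.0, and Ahctf1, Lrrcc1 and Rnf141 stood outside with 1.998, 1.998 and 1.996. For Btg4wt over Btg4tm, Med10 (1.503), Nfxl1 (1.51) and Snrpe (1.51) were inside and Rtf1, Ryk and Tmem128 (1.4997, 1.497 and 1.495) outside. A small change in a value would thus move genes across each line.

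**Figure D2:**
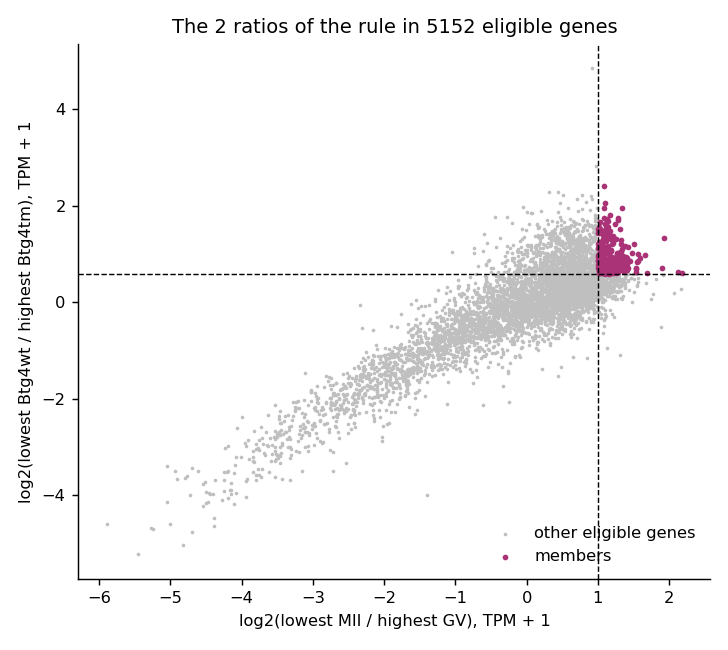
The log2 ratio of the lowest MII to the highest GV value (horizontal) against that of the lowest Btg4wt to the highest Btg4tm value (vertical), on TPM + 1, for the 5152 eligible genes. Dashed lines are the thresholds, and the 237 members fill the upper right corner by construction. Scaling to mitochondrially encoded RNA leaves 0 members.

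By the limma fit over all genes, which used log2(scaled TPM + 1), an adjusted p-value under 0.05 and a 2-fold minimum, 1752 of 13968 genes (12.5%) were called higher in MII than in GV, and all 237 members were among them. In Btg4tm against Btg4wt 1109 genes (7.94%) were called lower, among them 142 members (59.9%). Both counts repeat what the members were chosen for, and nothing is read from them.

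The members include 24 genes whose products act on mRNA itself. Paip1, which binds the poly(A)-binding protein and promotes translation, had 553 and 519.5 TPM in GV, 2759 and 2504 in MII, 2255 and 2186 in Btg4wt and 1432 and 967 in Btg4tm oocytes. Its MII over GV ratio of 4.52 was the largest of all members, and its Btg4tm libraries lay between GV and MII. Cpeb4, a protein that binds the CPE, had 7.55 and 7.29 TPM in GV, 31.8 and 31.6 in MII, 34.04 and 29.01 in Btg4wt and 9.47 and 10.9 in Btg4tm oocytes. That is a ratio of 3.81, with Btg4wt beside MII and Btg4tm just above GV. Lsm14b, a component of oocyte RNA granules, had 34.8 and 40.6 TPM in GV, 101 and 111 in MII, 119.7 and 106 in Btg4wt and 42.5 and 58.4 in Btg4tm oocytes. Cpsf2, part of the complex that recognises the poly(A) signal, had 36.9 and 37.7 TPM in GV, 79.1 and 78.2 in MII, 96.96 and 93.4 in Btg4wt and 45.03 and 44.4 in Btg4tm oocytes. Tent4a, a poly(A) polymerase outside the canonical family, had 39.4 and 33.7 TPM in GV, 109 and 92 in MII, 97.2 and 93.9 in Btg4wt and 44.7 and 54.3 in Btg4tm oocytes. For these 3 the Btg4tm values exceeded GV in both libraries and stayed well under MII.

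Several members belong to the machinery that shortens tails and removes mRNA. Cnot6l, a catalytic deadenylase subunit of CCR4-NOT, had 33.1 and 33 TPM in GV, 93.7 and 81.7 in MII, 81.9 and 72.1 in Btg4wt and 35.3 and 35.8 in Btg4tm oocytes. Cnot4, a ubiquitin ligase that associates with CCR4-NOT, had 32.3 and 32.8 TPM in GV, 75.03 and 71.8 in MII, 68.8 and 74.3 in Btg4wt and 35.7 and 43.8 in Btg4tm oocytes. Dcp1a, a cofactor of decapping whose 3′ end is shown above, had 139 and 159 TPM in GV, 342 and 327 in MII, 371 and 343 in Btg4wt and 145 and 121 in Btg4tm oocytes. Cnot6l and Cnot4 were slightly above GV in Btg4tm oocytes, while Dcp1a overlapped GV. Upf1, the helicase of nonsense-mediated decay, had 20.5 and 25.4 TPM in GV, 71.6 and 56.8 in MII, 68.8 and 69.7 in Btg4wt and 30.3 and 39.8 in Btg4tm oocytes. Tut7, which adds uridines to RNA with short tails, had 4.32 and 4.80 TPM in GV, 11.6 and 10.9 in MII, 12.4 and 10.7 in Btg4wt and 5.37 and 5.83 in Btg4tm oocytes. Marf1, an endoribonuclease needed in oocytes, had 25.2 and 30.1 TPM in GV, 68.9 and 65.98 in MII, 72.1 and 65.5 in Btg4wt and 17.3 and 20.5 in Btg4tm oocytes. Upf1 kept part of its MII level in Btg4tm oocytes, whereas Marf1 was below GV there.

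Other members of this group were Lin28a, Larp4, Dicer1, Piwil1, Zfr, Hnrnpa2b1, Eif5b, Secisbp2l, Ireb2, Zc3h12c, Rbm26 and Rbm27, and Khsrp, which binds AU-rich elements. Khsrp had 4.61 and 7.33 TPM in GV, 21.1 and 19.5 in MII, 28.4 and 29.6 in Btg4wt and 10.1 and 15.7 in Btg4tm oocytes. Over the 24 genes the MII over GV ratio had a median of 2.22 and the Btg4wt over Btg4tm ratio a median of 2.02. In Btg4tm oocytes 12 were above both GV libraries, 4 below and 8 overlapped, where 30.1% of eligible genes were above and 39.1% below. Of all members 46.4% were above and 21.1% below.

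**Figure D3:**
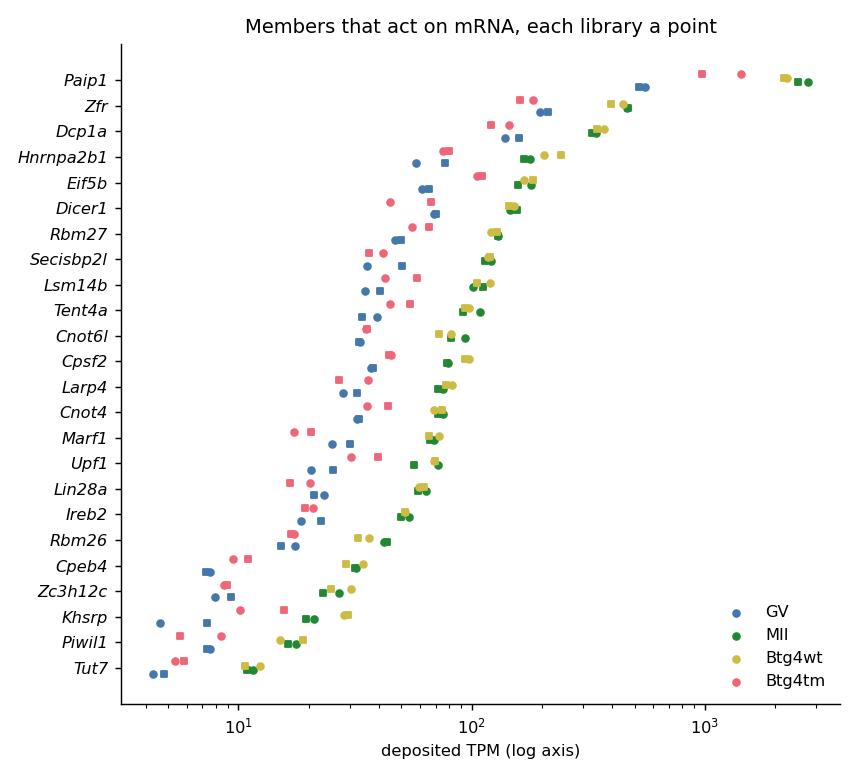
Deposited TPM on a log axis of the 24 members that act on mRNA, 1 point per library (circle for replicate 1, square for replicate 2) and 1 colour per group. In each row the MII and Btg4wt points lie to the right of the GV and Btg4tm points, of which the selection requires MII over GV and Btg4wt over Btg4tm. With mitochondrially encoded RNA as the reference the median over all members turns to -0.69 between GV and MII and is -0.03 between Btg4wt and Btg4tm.

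Chromatin was the largest group with a role assigned, with 25 members. Of these, 11 were under GV in both Btg4tm libraries, a share near the 39.1% of eligible genes and above the 21.1% of all members. Brd1, a scaffold of histone acetyltransferase complexes, had 18.6 and 18.1 TPM in GV, 60.3 and 56.7 in MII, 56.4 and 48.6 in Btg4wt and 23.95 and 22.8 in Btg4tm oocytes. Tet3, which oxidises 5-methylcytosine and acts on the paternal genome after fertilisation, had 55.4 and 62.9 TPM in GV, 169 and 153 in MII, 169 and 146 in Btg4wt and 73.5 and 70.02 in Btg4tm oocytes. Bptf, of the nucleosome remodelling factor NURF, had 30.3 and 30.02 TPM in GV, 69.5 and 70.5 in MII, 63.6 and 58.01 in Btg4wt and 33.8 and 33.3 in Btg4tm oocytes. All 3 were slightly above GV in Btg4tm oocytes. Kat6b, an acetyltransferase, had 19.3 and 23.1 TPM in GV, 50.5 and 51.2 in MII, 52.2 and 45.9 in Btg4wt and 14.6 and 17.2 in Btg4tm oocytes. Atrx, a remodeller of heterochromatin, had 34.03 and 41.1 TPM in GV, 97.8 and 85.5 in MII, 114 and 100.4 in Btg4wt and 50.8 and 44.8 in Btg4tm oocytes. Dot1l, which methylates histone H3 at lysine 79, had 6.67 and 7.15 TPM in GV, 16.2 and 16.7 in MII, 17.8 and 14.9 in Btg4wt and 7.996 and 8.91 in Btg4tm oocytes. Of these, Kat6b was under GV in Btg4tm oocytes and the other two were above it.

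Of the 12 members with the largest Btg4wt over Btg4tm ratios, 3 were chromatin genes, beside 25 of all 237 members. Roles were assigned to members only, so there is no such share for eligible genes. Sap130, a subunit of the SIN3 deacetylase complex, had 23.4 and 31.2 TPM in GV, 67.7 and 74.9 in MII, 98.7 and 102 in Btg4wt and 18.9 and 22.8 in Btg4tm oocytes, a ratio of 4.18. Nfrkb, of the INO80 complex, had 24.7 and 33.5 TPM in GV, 76.4 and 78.5 in MII, 83.7 and 73.1 in Btg4wt and 13.3 and 20.2 in Btg4tm oocytes, a ratio of 3.49. Kmt2d, a methyltransferase of histone H3 lysine 4, had 34.6 and 42.9 TPM in GV, 94.7 and 88.3 in MII, 101 and 96.9 in Btg4wt and 26.2 and 29.8 in Btg4tm oocytes, a ratio of 3.18. In each, both Btg4tm libraries were under both GV libraries. Emsy, a protein that binds BRCA2, had 3.01 and 4.59 TPM in GV, 11.5 and 10.2 in MII, 10.3 and 10.04 in Btg4wt and 4.81 and 3.62 in Btg4tm oocytes. Trim33, a ubiquitin ligase and chromatin reader, had 4.56 and 4.77 TPM in GV, 10.7 and 10.8 in MII, 9.19 and 7.80 in Btg4wt and 4.28 and 4.33 in Btg4tm oocytes. These were among the least abundant members. Over all 25, 7 were above GV in Btg4tm oocytes and 7 overlapped. The group also held Kmt2c, Kdm5c, Kdm6a, Chd4, Aebp2, Ino80d, Msl2 and Cecr2.

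DNA replication and repair gave 13 members. Orc6, of the origin recognition complex, had 217 and 230.0 TPM in GV, 647 and 619 in MII, 637 and 637 in Btg4wt and 337 and 392 in Btg4tm oocytes. Chek1, the checkpoint kinase, had 359 and 369 TPM in GV, 855 and 817 in MII, 868 and 876 in Btg4wt and 528 and 533 in Btg4tm oocytes. Pola1, the catalytic subunit of DNA polymerase alpha, had 19.5 and 23.98 TPM in GV, 50.2 and 49.4 in MII, 57.5 and 56.4 in Btg4wt and 15.4 and 20.1 in Btg4tm oocytes. With median-of-ratios scaling, unlike the TPM printed here, Orc6 and Chek1 had 52.1% and 52.0% of their log2 rise in Btg4tm oocytes. On deposited TPM Pola1 overlapped GV. Brca2, the recombination factor whose 3′ end is shown above, had 45.98 and 50.9 TPM in GV, 119 and 107 in MII, 140.0 and 127 in Btg4wt and 53.1 and 46.5 in Btg4tm oocytes. Blm, a helicase, had 12.9 and 12.9 TPM in GV, 27 and 27.5 in MII, 34.4 and 30.1 in Btg4wt and 17.2 and 15.7 in Btg4tm oocytes. Rev1 and Rev3l act together in synthesis past damaged bases. Rev1 had 14.6 and 16.4 TPM in GV, 39.1 and 40.1 in MII, 30.9 and 36.02 in Btg4wt and 15.8 and 11.8 in Btg4tm oocytes. Rev3l had 5.55 and 6.17 TPM in GV, 13.9 and 15.8 in MII, 15.3 and 13.02 in Btg4wt and 4.67 and 4.92 in Btg4tm oocytes. Brca2 and Rev1 overlapped GV in Btg4tm oocytes, Rev3l was under it and Blm above. Exons of Rev1 overlap those of Eif5b, another member, on the other strand over 26.6% of their length. Shprh, a ubiquitin ligase of the response to stalled forks, had 8.84 and 9.45 TPM in GV, 21.8 and 21.8 in MII, 23.4 and 21.8 in Btg4wt and 5.72 and 5.91 in Btg4tm oocytes, and its ratio of 3.30 between Btg4wt and Btg4tm was the largest here.

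Chromosome structure, spindle and centrosome gave 17 members. Smc4, of condensin, had 354 and 384 TPM in GV, 874 and 777 in MII, 874 and 895 in Btg4wt and 548 and 522 in Btg4tm oocytes. Smc3, of cohesin, had 172 and 171 TPM in GV, 452 and 422 in MII, 417 and 422 in Btg4wt and 271 and 250.0 in Btg4tm oocytes. Smc6, of the SMC5/6 complex, had 33.6 and 34.6 TPM in GV, 92.8 and 84.5 in MII, 98.6 and 88.5 in Btg4wt and 55.3 and 56.4 in Btg4tm oocytes. All 3 remained above GV in Btg4tm oocytes. Esco1, which acetylates cohesin, had 109.7 and 117 TPM in GV, 312 and 311 in MII, 289 and 275 in Btg4wt and 145 and 127 in Btg4tm oocytes. Nipbl, the cohesin loader, had 15.3 and 15.9 TPM in GV, 41.5 and 41.01 in MII, 33.5 and 28.1 in Btg4wt and 15.2 and 12.8 in Btg4tm oocytes. Esco1 stayed above GV in Btg4tm oocytes and Nipbl did not. Plk4, the kinase that starts centriole assembly, had 72.99 and 76.8 TPM in GV, 191 and 192 in MII, 177 and 187 in Btg4wt and 111 and 105 in Btg4tm oocytes. Pcm1, of centriolar satellites, had 15.4 and 15.1 TPM in GV, 40.5 and 40.2 in MII, 37.9 and 36.7 in Btg4wt and 14.1 and 14.4 in Btg4tm oocytes. Ccp110, which caps centrioles, had 10.9 and 14.9 TPM in GV, 41.4 and 33.6 in MII, 38.4 and 38.4 in Btg4wt and 8.32 and 11.8 in Btg4tm oocytes. Plk4 and Ccp110 both hold a CPE, yet Plk4 stayed above GV in Btg4tm oocytes while Ccp110 did not. In Btg4tm oocytes 11 of the 17 were above GV, 4 below and 2 overlapping, and the kinesins Kif2a and Kif18a were among the 17. Of eligible genes 30.1% were above and 39.1% below, and of all members 46.4% and 21.1%.

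The 18 members with a role in transcription held 5 subunits of Mediator, the complex that links transcription factors to RNA polymerase II. Med27 had 466 and 452 TPM in GV, 949 and 954 in MII, 919.8 and 971 in Btg4wt and 475 and 607 in Btg4tm oocytes. Med10 had 173 and 167 TPM in GV, 373 and 375 in MII, 369 and 359 in Btg4wt and 230.4 and 238 in Btg4tm oocytes. Med31, Med13 and Med15 had MII over GV ratios of 2.51, 2.48 and 2.02. All 5 were above GV in both Btg4tm libraries, as were 10 of the 18, 46.4% of all members and 30.1% of eligible genes. Mediator genes were not counted over the eligible genes. Foxn2, a forkhead factor, had 39.7 and 37.9 TPM in GV, 139 and 118 in MII, 139 and 106 in Btg4wt and 51.8 and 58.8 in Btg4tm oocytes. Tcf20, a transcriptional coregulator, had 17.2 and 18.1 TPM in GV, 59.2 and 54.5 in MII, 53.7 and 48.6 in Btg4wt and 27.9 and 29.3 in Btg4tm oocytes. Both hold a CPE in the last 100 bases and were above GV in Btg4tm oocytes. Nfya, a subunit of the CCAAT-binding factor NF-Y, had 80.7 and 73.2 TPM in GV, 258 and 258 in MII, 121 and 111 in Btg4wt and 37.2 and 56.2 in Btg4tm oocytes. It was the member furthest from MII in Btg4wt oocytes, at 38.9% of its log2 rise with median-of-ratios scaling.

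Splicing gave 15 members, among them the Sm proteins of the spliceosome Snrpe, Snrpf, Snrpg and Snrpd3. Snrpe had 240.0 and 261 TPM in GV, 647 and 607 in MII, 575 and 619 in Btg4wt and 325 and 381 in Btg4tm oocytes. Snrpg had 118 and 132 TPM in GV, 393 and 384 in MII, 386 and 394 in Btg4wt and 178 and 249 in Btg4tm oocytes. For all 4 Sm genes Btg4tm was above GV and below MII. Between 18.1% and 28.4% of the 50-base stretches of Snrpe, Snrpf and Snrpg occur in transcripts of other genes, so their counts are uncertain. In Btg4tm oocytes 10 of the 15 were above GV, against 30.1% of eligible genes, and 1, Pnn, was below, against 39.1%. Over all members the shares were 46.4% above and 21.1% below.

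The remaining roles were small. Actr2, of the Arp2/3 complex that branches actin, had 40.7 and 39.1 TPM in GV, 147 and 124 in MII, 142 and 121 in Btg4wt and 64.03 and 60.9 in Btg4tm oocytes. Lmo7, a protein of cell junctions and actin, had 50.5 and 61.7 TPM in GV, 140.4 and 131 in MII, 158 and 143 in Btg4wt and 24.7 and 41.6 in Btg4tm oocytes. Actr2 stayed above GV in Btg4tm oocytes and Lmo7 was under it. The group of 9 held the actin nucleator Fmn2 as well, with 22.2 and 23.8 TPM in GV, 58.7 and 54.6 in MII, 61.1 and 52.9 in Btg4wt and 19.8 and 24.4 in Btg4tm oocytes. Tbc1d15, which inactivates the GTPase RAB7, had 568 and 613 TPM in GV, 1288 and 1291 in MII, 1260.4 and 1292 in Btg4wt and 830.5 and 707 in Btg4tm oocytes. Fcho2, of endocytic pits, had 6.40 and 8.06 TPM in GV, 17.1 and 19.9 in MII, 18.2 and 17.3 in Btg4wt and 7.02 and 7.35 in Btg4tm oocytes. They were the highest and one of the lowest of 15 members in vesicle traffic and Golgi. In Btg4tm oocytes 10 of the 15 were above GV, 2 below and 3 overlapping. Of eligible genes 30.1% were above and 39.1% below, and of all members 46.4% and 21.1%. Rnf146, a ubiquitin ligase, had 8.04 and 8.99 TPM in GV, 24.3 and 29.9 in MII, 26.5 and 21.5 in Btg4wt and 4.31 and 4.81 in Btg4tm oocytes, a Btg4wt over Btg4tm ratio of 3.86. Its annotated exons overlap those of Echdc1 and Gm30698 on the other strand over 76.8% of their length, which counting without strand cannot separate.

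Proteins of mitochondria held the member with the largest Btg4wt over Btg4tm ratio. Mcu, the pore of the mitochondrial calcium uniporter (chr10:59446984-59616692, minus strand), had 59.5 and 75.97 TPM in GV, 199.9 and 163 in MII, 163 and 189 in Btg4wt and 29.7 and 27.7 in Btg4tm oocytes, a ratio of 5.33. Pptc7, a phosphatase of the organelle, had 22.9 and 28.6 TPM in GV, 70.9 and 74.05 in MII, 65.6 and 70.2 in Btg4wt and 16.5 and 18.9 in Btg4tm oocytes, a ratio of 3.34. Both were under GV in Btg4tm oocytes. Lyrm4, needed to build iron-sulfur clusters, had 191 and 150.1 TPM in GV, 535 and 508 in MII, 582 and 539.5 in Btg4wt and 303 and 299 in Btg4tm oocytes and stayed above GV.

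Of the genes expressed mainly in oocytes and early embryos, Oosp3 had 2644 and 2932 TPM in GV, 6661 and 6592 in MII, 6315 and 5675 in Btg4wt and 2403 and 3400.4 in Btg4tm oocytes. Tcl1b1 had 1911 and 2147 TPM in GV, 4356 and 4465 in MII, 4249 and 4344 in Btg4wt and 2055 and 2568 in Btg4tm oocytes. Both overlapped GV in Btg4tm oocytes, where the replicates differed more than in the other groups. A share of 13.0% of the 50-base stretches of Tcl1b1 occurs in other genes. The most abundant member, CT010467.1, is annotated as ribosomal RNA (chr17:39846353-39848827, minus strand) and overlaps Gm42418 and AY036118 on the other strand over 73.9% of its exonic length. It had 4676 and 6471 TPM in GV, 14149 and 13666 in MII, 13817 and 13758 in Btg4wt and 2449.5 and 5210.1 in Btg4tm oocytes.

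Among the 88 members left without a role group were several of the largest ratios. B130021K23Rik, annotated only as a transcript in need of experimental evidence, had 15.7 and 16.6 TPM in GV, 75.9 and 75.7 in MII, 35.7 and 78.8 in Btg4wt and 17.98 and 22.9 in Btg4tm oocytes. Its Btg4wt libraries differed by more than 2-fold. Myef2, an RNA-binding repressor, had 4.98 and 5.42 TPM in GV, 24.5 and 22.9 in MII, 22.3 and 19.11 in Btg4wt and 11.3 and 8.91 in Btg4tm oocytes, though 69.6% of its 50-base stretches occur in other genes. The RNA 9630014M24Rik had 8.33 and 8.28 TPM in GV, 30.4 and 29.1 in MII, 29.3 and 29.5 in Btg4wt and 17.6 and 18.97 in Btg4tm oocytes. Smim11, a small membrane protein, had 231 and 213 TPM in GV, 708 and 673 in MII, 642 and 632 in Btg4wt and 335 and 390.1 in Btg4tm oocytes. Plekha8, which transfers glycolipids, had 27.8 and 26.02 TPM in GV, 87.7 and 84.4 in MII, 86.7 and 61.6 in Btg4wt and 33.9 and 32.4 in Btg4tm oocytes. All 5 had both Btg4tm libraries above both GV libraries. Nufip2, an RNA-binding protein, had 35.4 and 52.02 TPM in GV, 115 and 112 in MII, 133 and 106 in Btg4wt and 24.3 and 26.7 in Btg4tm oocytes, a Btg4wt over Btg4tm ratio of 3.85. Nol10, a nucleolar protein, had 78.02 and 89.04 TPM in GV, 197 and 198 in MII, 222 and 219 in Btg4wt and 67.4 and 67.2 in Btg4tm oocytes, a ratio of 3.22. The gene 4931406P16Rik had 12.3 and 15.3 TPM in GV, 38.8 and 40.9 in MII, 43.1 and 40.4 in Btg4wt and 7.78 and 11.7 in Btg4tm oocytes, a ratio of 3.26. These 3 were under GV in Btg4tm oocytes. Near the thresholds, Ccdc88a had 3.06 and 4.15 TPM in GV, 11.2 and 10.1 in MII, 9.93 and 9.20 in Btg4wt and 4.87 and 3.70 in Btg4tm oocytes. Nucks1 had 3.65 and 5.30 TPM in GV, 11.6 and 13.3 in MII, 14.6 and 13.6 in Btg4wt and 5.998 and 7.002 in Btg4tm oocytes. Nfxl1 had 37.97 and 40.1 TPM in GV, 93.7 and 90.4 in MII, 91.8 and 83.1 in Btg4wt and 54.8 and 39.5 in Btg4tm oocytes. Of these Nucks1 was above GV in Btg4tm oocytes and the others overlapped it.

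Pathway lists, written with earlier results of these data known, showed how much of each pathway the members covered. Over all 13968 genes tested, 12.5% were called higher and 24.0% lower in MII than in GV, and 7.94% were called lower and 18.1% higher in Btg4tm than in Btg4wt, against which the counts of calls can be read. For the counts of members the base is 237 of 13968 genes tested, or 237 of 5152 eligible genes. Of 20 dormant mRNAs known to be recruited in maturation, all tested, 10 were called higher in MII than in GV and 0 lower, with a median log2 difference of 1.0. In Btg4tm against Btg4wt 3 of the 20 were called lower and 0 higher, and Orc6, Dcp1a and Cnot6l were members. Of 40 tested genes of deadenylation and decay, 17 were called higher in MII and 3 lower, and 8 were called lower in Btg4tm and 2 higher, with 5 members. Of 35 tested genes of cytoplasmic polyadenylation and mRNA storage, 9 were higher and 6 lower in MII, and 7 lower and 3 higher in Btg4tm, with 4 members.

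Of 77 tested chromatin regulators, 27 were called higher and 2 lower in MII, and 22 lower and 2 higher in Btg4tm, with 6 members, beside 12.5% and 24.0%, and 7.94% and 18.1%, of all genes. DNA repair and replication had 61 tested genes, 15 higher and 6 lower in MII, and 11 lower and 5 higher in Btg4tm, with 6 members. For 55 tested genes of the spindle checkpoint and chromosome segregation the counts were 17 higher and 6 lower in MII, and 7 lower and 5 higher in Btg4tm, with 5 members. In the 41 tested genes of centrosome, cilium and microtubules they were 7 higher and 4 lower in MII, and 9 lower and 2 higher in Btg4tm, with 3 members. Of 29 tested transcription factors of the oocyte, 9 were higher and 4 lower in MII, 3 lower and 2 higher in Btg4tm, and only Nfya was a member. By family name, the members held 4 of 30 tested lysine methylation enzymes, 2 of 27 kinesins and 2 of 48 ubiquitin-specific proteases. Eligible in these families were 15, 17 and 28 genes, where 237 of all 5152 eligible genes were members. The members held 0 of 35 centrosomal Cep genes, of which 19 were eligible, 12 were called higher in MII and 7 lower in Btg4tm. In other families more genes were called lower than higher in MII, as over all genes tested (24.0% and 12.5%). Of 149 genes named as transmembrane proteins 14 were called higher and 46 lower in MII, and 8 lower and 40 higher in Btg4tm, with 1 member. Of 50 WD repeat names 5 were higher and 13 lower in MII, of 40 MAP kinase cascade names 5 and 12, and of 49 DEAD and DEAH box helicases 3 and 10, with 0 members in each. Eligible were 19, 12 and 24 of them, too few to read 0 members as an absence. In Btg4tm the counts lower and higher were 3 and 7, 2 and 7, and 6 and 7 in the same order. The median helicase had a log2 difference of 0.16 from GV to MII and -0.29 from Btg4wt to Btg4tm. These are the signs of the members and also of eligible genes, whose medians were 0.53 and -0.23. Of 93 coiled-coil names 18 were higher and 23 lower in MII, and 3 lower and 19 higher in Btg4tm, with 4 members.

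The selection set no direct condition between Btg4tm and GV. Both Btg4tm libraries were above both GV libraries in 110 members (46.4%), against 30.1% of eligible genes. They were below in 50 members (21.1%), against 39.1%, and overlapped in 77. All 237 were below MII in both Btg4tm libraries. On the log2 scale with median-of-ratios scaling, the median member had 19.9% of its GV to MII rise in Btg4tm oocytes (quartiles 1.84% and 35.8%). It was under 0% in 55 members and over 50% in 19, from -66.4% for Mcu to 64.1% for 9630014M24Rik. The median log2 difference between Btg4tm and GV was 0.30 over the members and -0.08 over all genes tested.

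In the fit across all genes 143 of 13968 (1.02%) were called higher in Btg4tm than in GV and 142 (1.02%) lower. Among the members 3 (1.27%) were called higher, a share close to that of all genes, and 1 (0.422%) lower. The 3 were Paip1, with a log2 difference of 1.30 (standard error 0.16), 9630014M24Rik with 1.20 (0.13) and Khsrp with 1.14 (0.24), and the 1 was Mcu with -1.04 (0.15). Without replicate 2 of GV, Khsrp and Mcu were no longer called and Top1 was. Khsrp was also not called without replicate 1 of GV or replicate 2 of Btg4tm, on deposited TPM or with no trend, and neither Khsrp nor Mcu was called when the GV and Btg4tm libraries were fitted alone. The same libraries chose the members, so these calls are no independent test.

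Between Btg4wt and uninjected MII oocytes there was likewise no condition. Btg4wt was above MII in both libraries in 42 members (17.7%), against 29.6% of eligible genes, and below in 70 (29.5%), against 24.8%. In 125 the ranges overlapped. With median-of-ratios scaling the median member had 96.8% of its log2 rise in Btg4wt oocytes (quartiles 91.0% and 103%). On deposited TPM all 237 were above GV in both Btg4wt libraries. In limma 0 of 13968 genes were called in either direction (0.0%), and 0 members. At an unadjusted p under 0.05 there were 5 members higher (2.11%) and 8 lower (3.38%), against 6.77% and 5.08% of all genes. The member with the smallest p was Nfya, 1.16 lower on the log2 scale in Btg4wt than in MII (standard error 0.19), with a limma adjusted p of 0.12. With 2 libraries a group this does not show that the groups were alike.

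Features of the transcript that the selection did not use differed between the members and other genes, and their relation to each condition of the rule is given below. Of the 237 members 235 matched the GENCODE M21 annotation by symbol and 1 by an older symbol, and 97.5% of the matched were protein coding. Their principal transcripts had a median length of 4914 bases (quartiles 3484 and 6613), against 2793 in eligible genes and 2471 in all genes tested. The 3′ untranslated region had a median of 1797 bases in the members, 973 in eligible genes and 945 in all tested. The GC content had a median of 45.1% in the members and 48.2% in eligible genes.

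Length went with both conditions. Genes that met the 1.5-fold condition between Btg4wt and Btg4tm but not the MII condition had a median length of 4594 bases, close to the members. Genes that met the MII condition but were not members had 3056 bases, and genes that met neither had 2339. Across 5 length classes of eligible genes with about the same number each, the share with lower values in Btg4tm was 4.47%, 5.26%, 13.3%, 31.4% and 54.5% from the shortest to the longest. The share higher in MII was 6.42%, 3.89%, 7.59%, 10.9% and 18%, and members made up 1.56%, 0.97%, 2.43%, 5.65% and 12.4%. The median log2 difference from Btg4wt to Btg4tm went from 0.37 in the shortest class to -0.82 in the longest, and that from GV to MII from -0.35 to 0.94. Between Btg4wt and MII the class medians lay from -0.02 to 0.03, and between Btg4tm and GV from 0.01 to 0.15, a narrower range than for the other pairs.

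**Figure D4:**
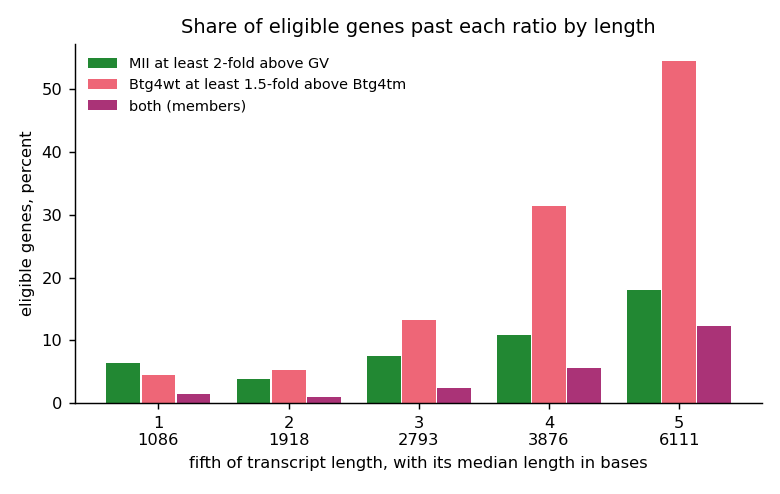
Percent of eligible genes that met the MII condition (green), the Btg4tm condition (red) and both, the members (purple), in 5 classes of transcript length from short to long, with the median length of each class on the axis. All 3 shares are highest in the longest class, and the Btg4tm share reaches 54.5% there, on a scale of shares of the library where 0 members remain with mitochondrial scaling.

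The CPE was more frequent among genes that met the MII condition. It was found in the last 100 bases of 79 of 229 member transcripts with an annotated 3′ untranslated region (34.5%), against 19.7% of all genes tested and 23.8% of eligible genes. In genes that met the MII condition only the share was 39.2%. In genes lower in Btg4tm without the MII condition the share was 23.2%, and 22.2% in genes that met neither. A poly(A) signal (AATAAA or ATTAAA) lay in the last 40 bases of 79.9% of the members and of 79.9% of eligible genes. Looked at from the motif, 14.7% of eligible genes with a CPE and 7.82% of those without met the MII condition, while 23.8% and 21.6% met the Btg4tm condition. The median log2 difference from GV to MII was 0.78 with and 0.42 without a CPE. From Btg4wt to Btg4tm it was -0.33 with and -0.19 without one, and from GV to Btg4tm 0.25 and 0.05.

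**Figure D5:**
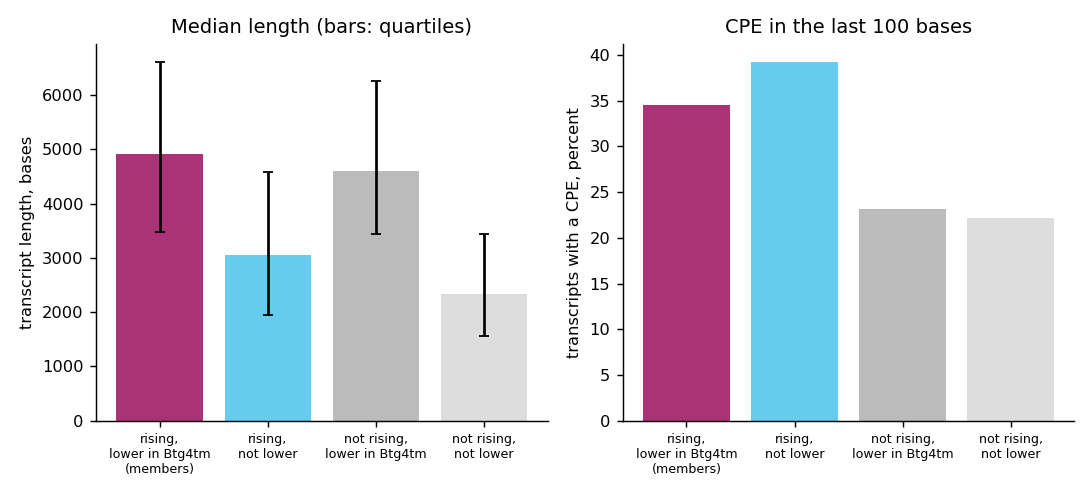
Median transcript length with quartiles (left) and percent of transcripts with a CPE in the last 100 bases (right) in eligible genes that met both conditions (the members), the MII condition only, the Btg4tm condition only, or neither. The groups lower in Btg4tm are longer, at 4914 and 4594 bases, and the groups higher in MII hold a CPE more often, at 34.5% and 39.2%, where both conditions are on shares of the library and 0 members remain with mitochondrial scaling.

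Within the members the ratios were also split by these features. The 118 longer members had a median Btg4wt over Btg4tm ratio of 1.99, the 118 shorter ones 1.77, and their MII over GV medians were 2.18 and 2.19. With a CPE the MII over GV median was 2.23 and without one 2.17. The share with a CPE was 55.6% of 18 transcription members, 46.2% of 13 in DNA replication and repair, 33.3% of 24 acting on mRNA and 16.7% of 24 chromatin members with an annotated region. Chromatin members had the longest transcripts, with a median of 6697 bases, and splicing members 3152. RNA integrity was not measured, and the separate parts of length, base composition and CPE content were not tested.

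Some values rest on shared sequence. In 26 members over 10% of the exonic bases overlap exons of other genes, and in 5 over 50% (Med10, Snrpf, Rnf146, Arfip1 and CT010467.1). In 16 members over 10% of the 50-base stretches occur in other genes, and in 3 over 50% (Myef2, Arfip1 and Csnk2a1). Members lay on 20 chromosomes, with 9 on the X chromosome (3.81%, against 3.62% of eligible genes).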

How the data were processed

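Poly(A) RNA of 8 mouse oocyte libraries was primed with oligo(dT) and amplified by Smart-seq2. The authors trimmed reads with Trim Galore 0.6.10, aligned them with HISAT2 2.2.0 to GRCm38, counted them without strand with featureCounts 2.0.6 and deposited TPM per gene, so depth is unknown and near-identical copies lose reads through the mapping quality filter. The labels name 3 samples per group, of which 2 are analysed here.

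The members and all gene lists were chosen with earlier results of these data known. The deposited TPM were used unscaled for the selection, ratios and positions, but percentages of the log2 rise used median-of-ratios scaled TPM. For tests across all genes, TPM were divided by median-of-ratios size factors (0.948 to 1.11), genes were kept with at least 1 TPM in 2 or more libraries, and log2(value + 1) was fitted over the 4 groups with limma 3.58.1 (R 4.3.3), with a trend. Genes were called where the p, adjusted by Benjamini-Hochberg over all genes, was under 0.05 and the difference at least 2-fold. Fold changes are on the log2(value + 1) scale and understate low genes. The scripts were tested on simulated data. Named members were the 12 largest of either ratio, the 8 highest in MII, those on the pathway lists, those next to a threshold and those called between Btg4tm and GV. Fmn2, Lyrm4, Snrpg, Top1 and the genes listed without values were named after their values were seen. Transcript length, 3′ ends and overlaps came from GENCODE M21, while the authors counted on vM25. Alternatives were other scalings, pseudocounts, filters, a replicate block and each library left out.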

Additional observations from a re-analysis of the deposited data

How the results depend on the processing

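Of 154 alternative values, 124 kept within the limits set for them and 30 moved. The number of members, 237, was 382 with median-of-ratios scaling (224 shared), 931 with quantile normalization (232 shared) and 0 with scaling to mitochondrially encoded RNA. It was 92 with a 2-fold Btg4wt over Btg4tm condition, 7 with a 3-fold MII condition, and 263 to 461 when 1 library was left out, with 461 without GV replicate 2. Leaving out a library can only relax the selection, so this count cannot fall and all 237 members were kept. These runs are therefore no check on which genes are members. Genes called higher in MII (1752) numbered 1145 on deposited TPM, 3110 with quantile normalization, 7 with mitochondrial scaling, 4168 with no minimum fold change and 1698 to 1915 without 1 library. Genes called lower in Btg4tm than Btg4wt (1109) numbered 1786, 69 and 3251 with quantile normalization, mitochondrial scaling and no minimum fold change, and 1053 to 1293 without 1 library. Between Btg4wt and MII (0) there were 69 calls with mitochondrial scaling and 0 without any 1 library, and at an unadjusted p under 0.05, an alternative chosen after seeing the data, 13 members. Between Btg4tm and GV the 285 genes became 3010 with mitochondrial scaling, 1591 with no minimum fold change and 108 to 341 without 1 library (108 without GV replicate 2). The 4 members called there became 14 with mitochondrial scaling, 7 with only the 4 libraries, 73 with no minimum fold change, 122 at an unadjusted p, also chosen after seeing the data, and 3 to 7 without 1 library (7 without Btg4tm replicate 1 or 2). The members' median log2 difference between Btg4wt and MII, -0.05, was 0.44 with mitochondrial scaling and -0.064 to -0.021 without 1 library. Between Btg4tm and GV, 0.30 became 0.15 on deposited TPM, -0.31 with mitochondrial scaling and 0.25 to 0.32 without 1 library. The CPE share of 34.5% was 45.4% in the last 200 bases. The cause was not tested.

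With the replicate block, 1755 genes were called higher in MII, 1109 lower in Btg4tm than Btg4wt, 1 between Btg4wt and MII and 285 between Btg4tm and GV. Same-numbered libraries did not deviate together, with correlations from -0.054 to 0.055 over 6 pairs of groups, so the numbers were not taken as pairs. Since TPM keep no depth, counting error could not be given.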

Other observations

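Genes set aside by name met the same value conditions in 36 cases: 10 mitochondrially encoded genes, 21 predicted genes named Gm, 4 named Zfp and 1 named Slc. The mitochondrial mt-Nd1, a subunit of respiratory complex I, had 887 and 1041 TPM in GV, 6107 and 6614 in MII, 4771 and 3359.6 in Btg4wt and 1456 and 1982 in Btg4tm oocytes. The ribosomal mt-Rnr2 had 2325 and 2342 TPM in GV, 5769.8 and 4916 in MII, 4904 and 5261 in Btg4wt and 1567 and 2374 in Btg4tm oocytes. In mt-Nd1 both Btg4tm libraries were above GV, and in mt-Rnr2 they overlapped it. The zinc importer Slc39a10 had 163 and 181 TPM in GV, 416 and 386 in MII, 417 and 394 in Btg4wt and 162 and 138 in Btg4tm oocytes, and Zfp518a, a zinc finger protein, had 31.2 and 39.2 TPM in GV, 82.1 and 80.3 in MII, 83.5 and 77.2 in Btg4wt and 24.3 and 25.1 in Btg4tm oocytes. In both genes the Btg4tm libraries were under the GV libraries, for Slc39a10 by a margin smaller than the spread of the GV values in 1 of them. Of the 1422 genes listed in the GV and MII files only, 0 met the MII conditions.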
